A study of Homo sapiens with 2 samples.

Results

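The 18S segment of the human 45S pre-rRNA was followed bin by bin in the RNA of mitotic HCT116 cells. HCT116 is a human colorectal carcinoma cell line. The cells were treated overnight with colcemid, a microtubule poison that holds them in prometaphase, and were lysed in NETN100 buffer. RNA was sequenced from what this buffer dissolved, the soluble fraction, and from the pellet, which holds the condensed chromosomes, with 1 library for each fraction. The labels give both libraries the same line, treatment and mitotic state, and they name no drug-free cells, no interphase cells and no other line. The files hold read counts in 142 bins of the 45S sequence, and the 19 bins that lie between the 5'ETS and ITS1 are 18S. The 18S bins were chosen by position only (3657 to 5527 of the GenBank 45S reference sequence) and are numbered here from 1 at the 5' end. Bins 1 to 18 are 100 bp long and bin 19 is 71 bp long. The counted features are all rDNA and hold no marker gene of a cell type.

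18S rRNA is the RNA of the small ribosomal subunit. It folds into 4 domains. The 5' domain builds the body of the subunit, the central domain the platform, the 3' major domain the head, and the 3' minor domain holds the long helix of the decoding site at the subunit interface and the 3' end. RNA polymerase I transcribes 18S within a long precursor, between the 5'ETS and ITS1. The 5' end of 18S is cut in the nucleolus, and the last piece of ITS1 is removed in the cytoplasm by the endonuclease NOB1. Whole bins were assigned to the domains from the known fold of the molecule. Bins 1 to 7 were taken as the 5' domain, bins 8 to 12 as the central domain, bins 13 to 17 as the 3' major domain and bins 18 and 19 as the 3' minor domain. The borders are therefore approximate, and the border of the 5' and central domains falls within bin 7.

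The stretches on which the results turn are shown from the 18S gene RNA18SN1 of RefSeq, on the plus strand of chromosome 21 in GRCh38 (chr21:8436876-8438744). This gene has 1869 nt, whereas 18S has 1871 nt in the binned reference. The place of the 2 additional nucleotides is not known, so each window may be shifted by up to 2 nt against its bin. The copies RNA18SN2 and RNA18SN3 on the same chromosome each differ from RNA18SN1 at 1 position. The first stretch is bin 1 with the 30 nt of 5'ETS before it, and the second is bins 18 and 19 with the 30 nt of ITS1 behind them, because these 3 bins differed most between the fractions. Capitals mark mature 18S. In bin 8, which had the most reads, capitals mark the 5 runs of at least 6 G or C. In the stretch of bins 12 to 14, the inner part of 18S with more signal in the pellet, capitals mark bin 12.
5' end (chr21:8436846-8436975): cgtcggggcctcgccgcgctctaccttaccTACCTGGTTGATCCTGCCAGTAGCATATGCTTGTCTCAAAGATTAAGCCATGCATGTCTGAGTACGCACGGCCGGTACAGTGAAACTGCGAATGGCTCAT
3' end (chr21:8438574-8438774): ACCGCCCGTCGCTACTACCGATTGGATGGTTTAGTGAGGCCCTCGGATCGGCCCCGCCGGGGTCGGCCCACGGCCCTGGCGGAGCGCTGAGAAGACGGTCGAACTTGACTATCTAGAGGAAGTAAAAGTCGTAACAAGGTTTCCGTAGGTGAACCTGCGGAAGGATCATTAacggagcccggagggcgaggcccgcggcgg
Bin 8 (chr21:8437576-8437675): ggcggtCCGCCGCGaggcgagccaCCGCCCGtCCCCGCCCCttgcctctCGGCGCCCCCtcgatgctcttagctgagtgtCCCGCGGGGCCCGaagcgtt
Bins 12 to 14 (chr21:8437976-8438275): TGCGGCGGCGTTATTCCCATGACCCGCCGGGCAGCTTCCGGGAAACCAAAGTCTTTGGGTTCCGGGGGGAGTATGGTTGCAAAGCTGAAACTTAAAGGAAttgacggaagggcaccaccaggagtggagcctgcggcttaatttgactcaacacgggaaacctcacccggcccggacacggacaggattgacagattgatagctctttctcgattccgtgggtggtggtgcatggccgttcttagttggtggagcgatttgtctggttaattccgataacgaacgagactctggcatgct

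In the soluble library, 2372196 of 6140899 rDNA reads lay in 18S (38.6%), and in the pellet library 977431 of 3564013 (27.4%). Levels are given as CPM, which is the reads of a bin over those of all 142 bins of its library, times 1000000, and per 100 bp where bins of different length are set side by side. The pellet to soluble ratio is the ratio of CPM, and it was 0.710 for 18S as a whole (95% interval 0.708 to 0.712). Such a ratio compares shares of the rDNA reads within each library, not amounts of RNA per cell. The paper reports that chromosome-associated RNA was a small part of total RNA. A ratio above 1 therefore does not mean that the pellet held more molecules than the soluble fraction. Every bin of 18S held at least 163 reads in each library. The intervals cover counting error only and take every read as independent. Reads amplified by PCR without molecular identifiers are not independent molecules, so the intervals may be too narrow even for this error. With 1 library per fraction, the spread between preparations is unknown and no test between the fractions could be made.

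The whole-segment ratio hid 3 kinds of bins. Of the 19 bins, 13 had less signal in the pellet fraction, with ratios from 0.525 to 0.874, although on the scale of 18S reads only 4 of these (2, 6, 10 and 15) passed to the other side, at 1.23, 1.14, 1.07 and 1.04. The 3 bins at the ends of 18S (1, 18 and 19) had ratios from 26.1 to 41.5, and 3 neighbouring bins in the inner part (12, 13 and 14) had ratios from 1.70 to 2.74. These groups were formed after the values were seen. Summed, the 3 end bins had a ratio of 26.9 (26.1 to 27.7), bins 12 to 14 a ratio of 2.13 (2.11 to 2.15), and the 13 other bins a ratio of 0.620 (0.618 to 0.622). The end bins thus lay far from the rest of 18S, while bins 12 to 14 lay between both.

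**Figure D1:**
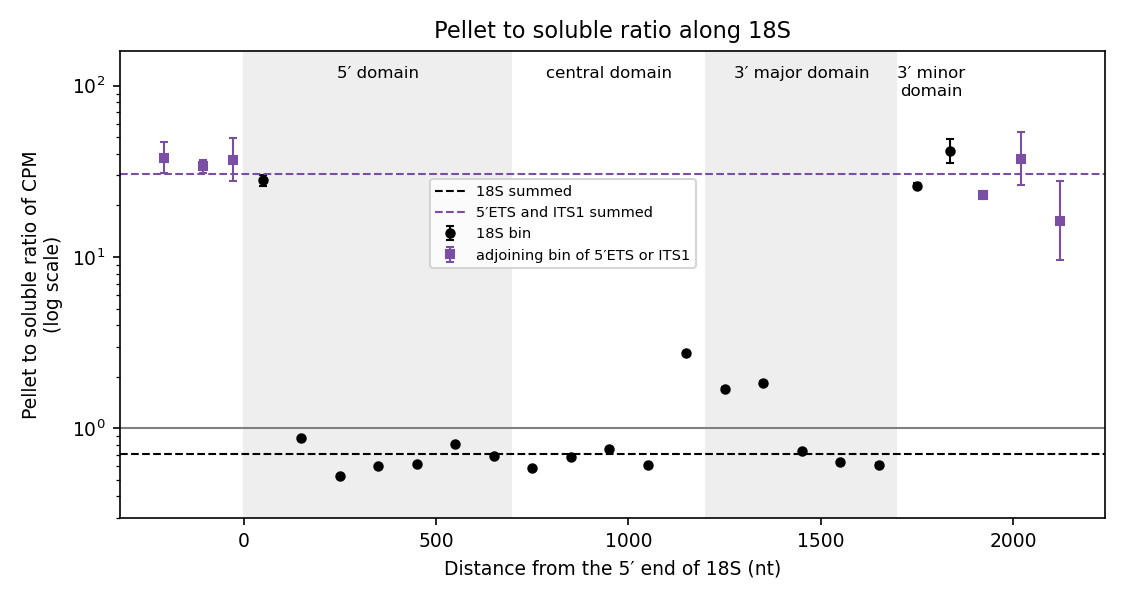
Pellet to soluble ratio of CPM (log scale) for each 18S bin (black points) and for the 3 adjoining bins of the 5'ETS and of ITS1 (squares), by distance from the 5' end of 18S in nt. Bars are 95% counting intervals, shading marks the domains, dashed lines give the summed 18S (0.710) and the summed 5'ETS and ITS1 (30.3). The 3 end bins sit among the spacer bins, and bins 12 to 14 lie between them and the other bins of 18S.

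By domain, the 3' minor domain stood apart. In the soluble fraction the domain gave 4354 reads, which is 0.184% of the 18S reads (Wilson 95% interval 0.178% to 0.189%), over 9.14% of the length of 18S. In the pellet fraction it gave 67479 reads, which is 6.90% (6.85% to 6.95%). Its pellet to soluble ratio was 26.7 (25.9 to 27.5). The 3' minor domain was thus nearly missing from the soluble reads and near its share of the length in the pellet reads. The pellet share rests on bin 18, which gave 94.2% of the pellet reads of the domain, while bin 19 held 0.402% of the pellet 18S reads.
The other domains had ratios below 1 on this scale. The ratio was 0.650 in the 5' domain (0.647 to 0.653), 0.641 in the central domain (0.639 to 0.644) and 0.731 in the 3' major domain (0.727 to 0.735). Relative to 18S reads only, the first and the second stayed below 1 (0.915 and 0.903), while the 3' major domain moved to 1.03. The 3' major domain also passed to 1.33 when the median bin density of each library was used in place of the sum. These medians came from different bins (13 in the pellet and 17 in the soluble fraction). The median of its bin ratios was 0.736, with 3 of its 5 bins below 1. The direction of this domain thus rests on how it is summed and scaled.
Within each fraction, the central domain had the largest share of 18S reads, which rests on bin 8. It held 47.4% in the soluble fraction (47.3% to 47.4%) and 42.8% in the pellet fraction (42.7% to 42.9%), over 26.7% of the length. The 5' domain held 32.4% and 29.6%, over 37.4% of the length, and the 3' major domain held 20.1% and 20.7%, over 26.7%. Without bin 8, the central domain held 18.6% of the soluble and 19.4% of the pellet 18S reads, so that neither its rank nor the direction between the fractions held. In density, the soluble fraction had 36605 CPM per 100 bp in the central domain, 17863 in the 5' domain, 15504 in the 3' major domain and 414.6 in the 3' minor domain. The pellet fraction had 23476, 11609, 11335 and 11072 CPM per 100 bp in the same order, so that 3 of its 4 domains lay close together. Each of the 3 close values rests largely on 1 strong bin. Bin 4 gave 49.5% of the pellet reads of the 5' domain and bin 16 gave 59.2% of those of the 3' major domain. In the 3' minor domain, bin 18 gave 94.2%. The close values thus do not mean even coverage within these domains.

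**Figure D2:**
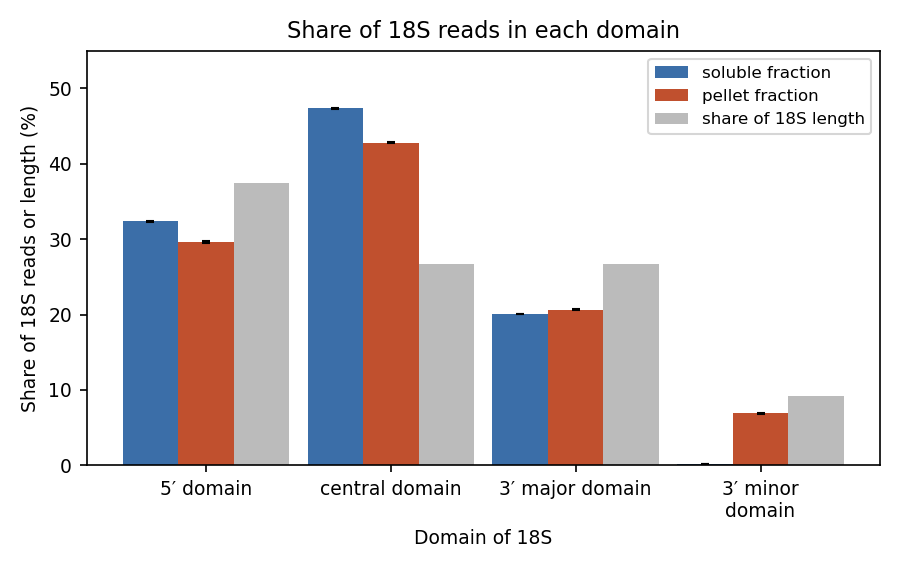
Share of 18S reads (%) in each domain for the soluble and the pellet library, beside the share of the length of 18S (grey). Bars start at 0 and error bars are Wilson 95% intervals. The 3' minor domain held 0.184% of the soluble and 6.90% of the pellet 18S reads.

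In the 5' domain, the first bin and the 6 bins after it were unlike. Bin 1 (3657 to 3756), the mature 5' end, had 718 soluble reads (116.9 CPM) and 11666 pellet reads (3273 CPM). Its ratio was 28 (26.0 to 30.2). From bin 1 to bin 2, the level became 57.6 times higher in the soluble fraction and 1.80 times higher in the pellet fraction. Thus the 5' end was low in both fractions, and far lower in the soluble one.
Bin 2 (3757 to 3856) had 6739 CPM in the soluble and 5888 CPM in the pellet fraction, a ratio of 0.874 (0.859 to 0.888). Bin 3 had 22417 and 11761 CPM, and its ratio of 0.525 (0.519 to 0.530) was the lowest of 18S. Bin 4 (3957 to 4056), the strongest of this domain, had 67053 and 40208 CPM, a ratio of 0.600 (0.596 to 0.603). Bin 4 alone held 53.6% of the soluble and 49.5% of the pellet reads of the domain.
The remaining 3 bins were close in level. Bin 5 had 10459 soluble and 6471 pellet CPM, a ratio of 0.619. Bin 6 had 9057 and 7349 CPM, a ratio of 0.811, and bin 7, which reaches into the central domain, had 9200 and 6313 CPM, a ratio of 0.686. All 6 bins from 2 to 7 were lower in the pellet fraction on the scale of all rDNA reads, and bins 2 and 6 were higher on that of 18S reads only.

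In the central domain, bin 8 (4357 to 4456) had the highest signal of 18S in both fractions. It had 136662 CPM in the soluble fraction and 79621 CPM in the pellet fraction, a ratio of 0.583 (0.580 to 0.585). Its 839230 soluble reads were 35.4% of the 18S reads of that library, and its 283770 pellet reads were 29.0%. Bin 8 was also the most GC-rich window of 18S, with 76.0% G or C, against 56.1% in 18S as a whole.
Bins 9 to 11 were lower in the pellet fraction as well, bin 10 not so over 18S reads only. Bin 9 had 9822 soluble and 6664 pellet CPM, a ratio of 0.678. Bin 10 had 10791 and 8200 CPM, a ratio of 0.760, and bin 11 had 22395 and 13696 CPM, a ratio of 0.612. The picture changed at bin 12 (4757 to 4856), the last of the domain, which had 20591 soluble reads (3353 CPM) and 32778 pellet reads (9197 CPM). Its ratio was 2.74 (2.70 to 2.79). From bin 11 to bin 12, the level was 6.68 times lower in the soluble fraction and 1.49 times lower in the pellet fraction. Bin 12 was therefore the 15th of the 19 bins by density among the soluble reads and the 8th among the pellet reads.

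The 3' major domain opened with bins that continued this pattern. Bin 13 (4857 to 4956) had 3747 CPM in the soluble and 6365 CPM in the pellet fraction, a ratio of 1.70 (1.67 to 1.73). Bin 14 (4957 to 5056) had the least signal of the inner bins, with 1538 and 2836 CPM, and a ratio of 1.84 (1.79 to 1.90). Together, bins 12 to 14, which cover nt 1101 to 1400 of 18S across the border of the central and 3' major domains, held 2.24% of the soluble and 6.71% of the pellet 18S reads. Without bin 12, the ratio of the remaining pair was 1.74. The GC content of these 3 windows was 56.0%, 57.0% and 51.0%, near the median window of 18S (56.0%).
Behind them, the pattern of the rest of 18S returned. Bin 15 had 14986 soluble and 11029 pellet CPM, a ratio of 0.736. Bin 16 (5157 to 5256) had 52468 and 33532 CPM, a ratio of 0.639, and held 67.7% of the soluble and 59.2% of the pellet reads of the domain. Bin 17 had 4783 and 2914 CPM, a ratio of 0.609. The bins with the most reads in 18S (8, then 4, then 16) were the same in both fractions.

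In the 3' minor domain, the fractions went opposite ways at its border. Bin 18 (5357 to 5456), which opens with the 5' strand of the decoding helix, had 4191 soluble reads (682.5 CPM) and 63550 pellet reads (17831 CPM). Its ratio was 26.1 (25.3 to 27.0). From bin 17 to bin 18, the level was 7.01 times lower in the soluble fraction and 6.12 times higher in the pellet fraction. By density, bin 18 was the 17th bin in the soluble reads and the 4th in the pellet reads.
Bin 19 (5457 to 5527), the mature 3' end, had 163 soluble reads (26.5 CPM) and 3929 pellet reads (1102 CPM), and its ratio of 41.5 (35.5 to 48.6) was the highest of 18S. Per 100 bp, it was the lowest bin of 18S in both libraries, with 37.4 CPM in the soluble and 1553 CPM in the pellet fraction. The level of bin 18 was 18.3 times that of bin 19 in the soluble fraction and 11.5 times in the pellet fraction. The end bins also differed in base composition, with a GC content of 49.0% in bin 1, 70.0% in bin 18 and 42.3% in bin 19. The part of base composition in their ratios was not tested.

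**Figure D3:**
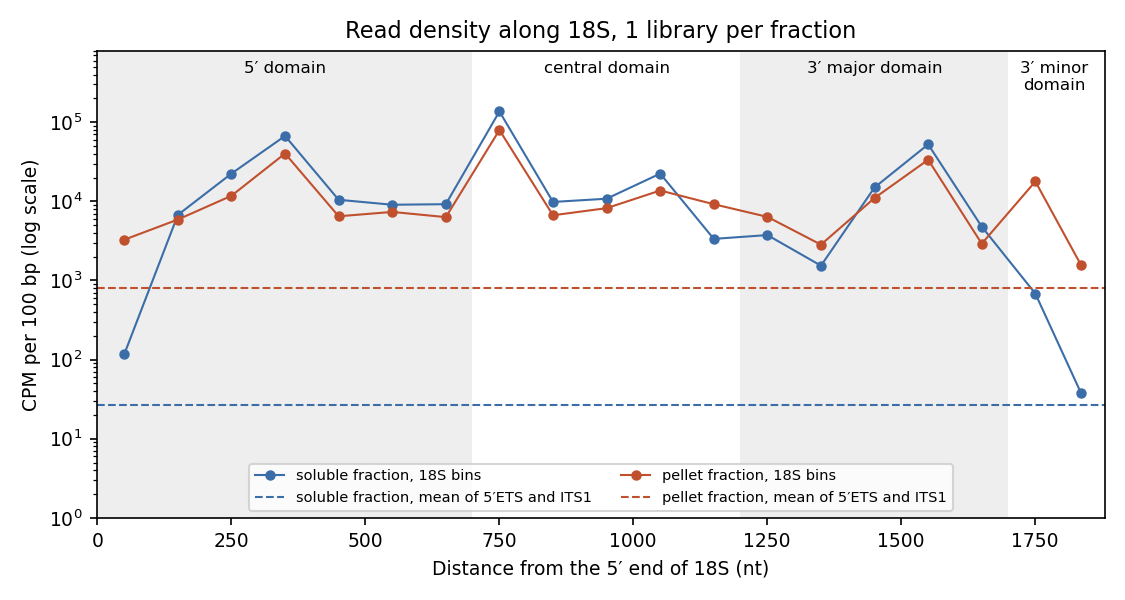
Read density (CPM per 100 bp, log scale) of the 19 bins by distance from the 5' end of 18S in nt, for the soluble and the pellet library (1 library each, no error bars). Dashed lines are the mean density of the 5'ETS and ITS1 in each library (26.7 and 809.2 CPM per 100 bp). The soluble line lies above the pellet line in 13 bins on this scale (9 bins relative to 18S reads only), and below it at both ends and in bins 12 to 14.

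Ordered by the ratio, most neighbouring bins differed by more than their counting intervals. The intervals overlapped between bins 4 and 17, 17 and 11, 11 and 5, 9 and 7, and 18 and 1, so these neighbours could not be ordered. Relative to 18S reads only, 10 bins had a larger share in the pellet fraction and 9 a smaller one. In total, 13.4% of the 18S reads lay in other bins in one library than in the other. Bin 18 alone made up 47.1% of this shift, with 0.177% of the soluble and 6.50% of the pellet 18S reads. The largest loss of share was that of bin 8.
The reads of both libraries were uneven along 18S. The 3 strongest bins held 66.3% of the soluble and 55.9% of the pellet 18S reads. The strongest bin had 3656 times the density of the weakest in the soluble fraction and 51.3 times in the pellet fraction. Among the 16 inner bins (2 to 17), these values were 88.9 and 28.1. The pellet profile was thus the flatter one, at the ends and within.
Across the 19 bins, the log2 densities of both libraries had a Pearson r of 0.77 and a Spearman rho of 0.74, and across the 16 inner bins an r of 0.92 and a rho of 0.85. These are descriptions, because neighbouring bins of a library share their preparation, depth and sequence. Across the 19 windows, Spearman's rho of GC content was 0.50 with the soluble density, 0.68 with the pellet density and -0.38 with the ratio, and across the 16 inner windows it was 0.61, 0.57 and -0.42.

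Compared with the rest of the 45S sequence, the end bins of 18S had ratios like the spacers, and most others had ratios near those of 28S or lower. With a pseudocount of 1 CPM, 4 of the 19 bins of 18S (21.1%) were more than 2-fold higher in the pellet fraction, namely 1, 12, 18 and 19. Among all 138 bins with a read, 55.8% were, including all 47 bins of the 5'ETS and ITS1 with reads. In 28S, 4 of 50 bins were. No 18S bin was more than 2-fold lower in the pellet fraction, against 0.725% of all bins. Relative to 18S reads only, bins 13 and 14 joined the higher ones, which made 6 bins, against 60.9% of all bins on that scale, and again none was more than 2-fold lower, against 0.725%.
With at least 100 reads in each library, the 19 bins of 18S had a median ratio of 0.736, the 45 bins of 28S a median of 0.983, with a range from 0.284 to 23.0, and the 13 bins of the 5'ETS and ITS1 a median of 30.3, with a range from 22.2 to 51.3. The 3 end bins of 18S lay within this range of the spacers, as did 1 bin of 28S, and the other 16 of 18S lay below it.
By the ratio over the 2 libraries, the 3 bins outside 18S nearest to the whole 18S were all in 28S, at 11435 to 11534 (0.723), 10235 to 10334 (0.683) and 12035 to 12134 (0.745). Nearest to bin 1 was the 5'ETS bin from 801 to 900 (28), to bin 18 that from 501 to 600 (27.5) and to bin 19 that from 2101 to 2200 (41.3). Nearest to bin 12 was the 28S bin from 10135 to 10234 (2.21).

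**Figure D4:**
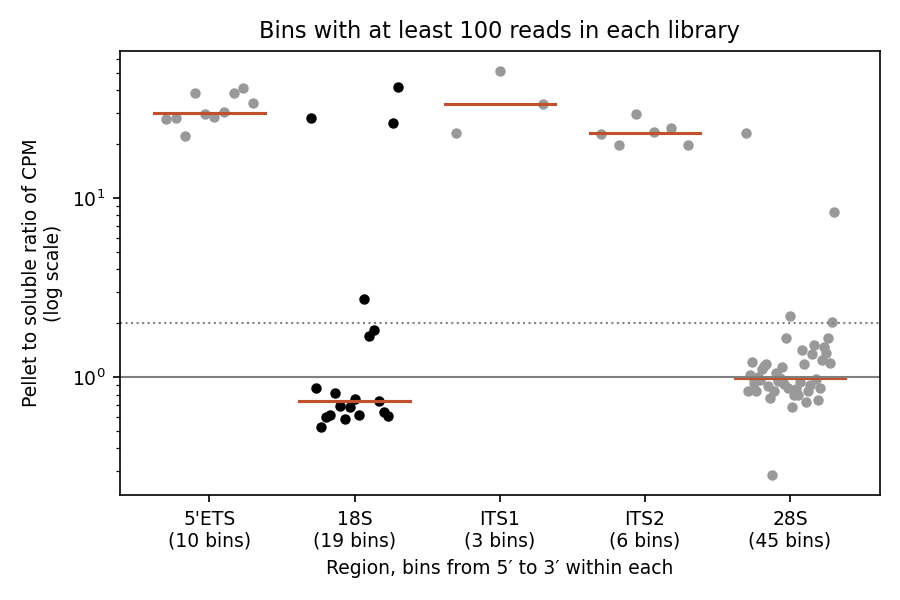
Pellet to soluble ratio of CPM (log scale) of each bin with at least 100 reads in each library, by region, with the bins of a region in order from 5' to 3'. Black points are 18S, red lines are medians, the solid and dotted grey lines are ratios of 1 and 2. On this scale 13 of the 18S bins lie below 1 (9 relative to 18S reads only), and its 3 end bins lie at the level of the 5'ETS and ITS1 bins.

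The end bins were then set beside the spacer on their own side. In the soluble fraction, bin 1 had 4.70 times the mean density of the 5'ETS (24.9 CPM per 100 bp), and in the pellet fraction 4.26 times (767.6). Bin 18 had 20.9 times the mean density of ITS1 in the soluble fraction (32.7 CPM per 100 bp) and 18.8 times in the pellet fraction (948.2). For bin 19 these values were 1.14 and 1.64. So the levels of bins 1 and 18 relative to the mean of their spacer were close between the fractions. Bin 19 stood higher over the mean of ITS1 in the pellet fraction, with only 163 reads behind its soluble level. ITS1 was uneven, however, and its bin next to bin 19 had 240.7 soluble and 5562 pellet CPM per 100 bp. Bin 19 lay below that adjoining bin in both fractions, at 37.4 and 1553 CPM per 100 bp.
The 6 adjoining spacer bins had ratios from 16.3 to 38. The 5'ETS bin next to bin 1, from 3601 to 3656, had 48 soluble and 1030 pellet reads, a ratio of 37.0 (27.7 to 49.4), whose interval overlaps that of bin 1. The whole 5'ETS bin before it, from 3501 to 3600, had 530 soluble and 10402 pellet reads, a ratio of 33.8 (31.0 to 36.9). The first ITS1 bin, from 5528 to 5627, had 1478 soluble and 19823 pellet reads, a ratio of 23.1 (21.9 to 24.4). The interval of bin 1 lay below that of the bin from 3501 to 3600, and the intervals of bins 18 and 19 lay above that of this ITS1 bin. The next ITS1 bins had few soluble reads (31 and 15) and wide intervals, with ratios of 37.5 (26.2 to 53.8) and 16.3 (9.58 to 27.8). Reads cannot tell mature 18S from the same sequence within a precursor.
The mean spacer density of each library was also taken off as a stand-in for precursor reads. This took 809.2 CPM per 100 bp from the pellet and 26.7 from the soluble density. Every ratio below that of the summed spacers (30.3) therefore had to fall, and any above it had to rise. That the 13 bins below 1 stayed below 1 was thus fixed in advance and is no check on them. The ratio of bins 12 to 14 was then 1.87, with bin 14 at 1.34, and that of the whole 18S was 0.672. Bin 18 was at 26.0, while bin 19, whose soluble density was 1.40 times the mean of the spacers, moved from 41.5 to 69.5. In this subtraction every precursor is assumed to be covered evenly, which the uneven counts of the spacers do not show.

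The study also probed 18S by other methods, and the bins that these oligonucleotides cover differed widely here. The 18S RT-qPCR product matched nt 788 to 953 of RNA18SN1, in bins 8 to 10, where the summed reads gave a ratio of 0.601 (0.598 to 0.603). Only 13 nt of the product lie in bin 8, which gave 86.9% of these soluble reads. The bins that hold the rest of it, with 100 nt in bin 9 and 53 nt in bin 10, had ratios of 0.678 and 0.760, the second of which was 1.07 over 18S reads only. The northern blot probe matched nt 365 to 384, in bin 4, with a ratio of 0.600. The human RNA FISH probe for 18S matched nt 1795 to 1824, with 4 nt in bin 18 (ratio 26.1) and 26 nt in bin 19 (ratio 41.5). The sum of both bins, 26.7, is mainly that of bin 18, which gave 96.3% of their soluble reads. The RT-qPCR and northern blot sites thus lay in the part of 18S with a smaller share of the pellet than of the soluble rDNA reads. The RNA FISH site lay in the part with a larger share. These shares do not give the amount of RNA that each method would detect in a fraction or on chromosomes.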

How the data were processed

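The authors trimmed the reads with Trim Galore (0.6.6), aligned them to the GenBank 45S rDNA sequence with STAR (2.7.8a) and used featureCounts (2.0.1) to assign them to the bins. What the authors deposited is the unscaled read count of each bin and library. How reads over more than 1 bin were counted and the strand setting are not given in the sources used here. The methods name single-end and longer paired-end reads without saying which were used for these libraries. Long reads can cross the border of a 100 bp bin, so such a rule could change the level of single bins.

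CPM used the total of all 142 bins. Shares have Wilson 95% intervals, and ratios have 95% counting intervals on the log scale. A bin was called at more than 2-fold with a pseudocount of 1 CPM. All 19 bins and 4 domains were described. The likeness rule took the nearest log2 ratios among the 64 other bins with at least 100 reads in each library. The members, domains and rules were chosen with earlier results of these data known. The alternatives were other denominators, bins left out, medians, spacer density taken off, another domain border, folds of 1.5 and 3, pseudocounts of 0.1 and 10 CPM and a minimum of 100 reads. Intervals were tested on simulated independent counts only. This is the model that they assume, so the simulation cannot show how they hold for PCR copies. GC content and sequences came from GRCh38, whose coordinates do not apply to the counted sequence. Oligonucleotides were placed by exact matches. Python (3.11.15), NumPy (2.4.6), pandas (2.3.3), SciPy (1.17.1) and matplotlib (3.10.9) were used.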

Additional observations from a re-analysis of the deposited data

How the results depend on the processing

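With reads taken as independent, counting error was small in 18S except in bin 19, with 163 soluble reads. However, 1 library per fraction leaves the spread between preparations unknown. No paired analysis was possible because the 2 groups hold 1 sample each, so that even fractions of the same lysate would give a single pair. The domain ratios moved outside their narrow counting intervals under most alternatives. Another denominator rescales all domains by the same factor and keeps their order. Over 18S reads only, each ratio is divided by that of the whole 18S (0.710). The cause of the other moves was not tested. For the 5' domain (0.650) the ratio was 0.915 over 18S reads only, 0.691 over 18S plus 28S reads and 0.708 without the bin with the most reads. It was 0.703 from the median bin density of each library, 0.605 with the spacer density taken off and 0.624 without the first bin of 18S. With bin 7 counted to the central domain it was 0.647. For the central domain (0.641), the first 5 of these gave 0.903, 0.682, 0.814, 0.852 and 0.620. For the 3' major domain (0.731) they gave 1.03, 0.777, 0.924, 1.33 and 0.680. In these 3 domains the median densities came from different bins, so their ratios do not compare like with like. They were bins 5 (pellet) and 7 (soluble) in the 5' domain, 12 and 10 in the central, and 13 and 17 in the 3' major domain. The medians of the bin ratios themselves were 0.686 in the 5', 0.678 in the central and 0.736 in the 3' major domain. For the 3' minor domain (26.7), 18S reads only gave 37.6, 18S plus 28S reads 28.4 and bin 19 alone 41.5. With the spacer density taken off or without bin 19, the ratio stayed within the interval. The median over its 2 bins repeats their sum by construction and is no separate check. The median of its bin ratios was 33.8, outside the interval. The number of 18S bins higher in the pellet fraction ranged from 3 to 6. The number of bins lower by more than 1.5-fold was 7, against 0 at 2-fold, and 0 under the other alternatives. The share of all bins called is given above only at 2-fold, over all rDNA reads or 18S reads only. The counts under other settings have no such share beside them and are not set against the other regions. Alternatives for single bins, for the whole 18S, for bins 12 to 14 and for the end bins were chosen after the data were seen, and none turned a bin called at 2-fold to the other side of 1. The end bins had a ratio of 30.5 without bin 18, and bin 19 moved most when the spacer density was taken off, to 69.5, since few soluble reads remained. The whole 18S had a ratio of 0.654 without its end bins.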
